A study of Homo sapiens with 4 samples.

Results

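The genes described here were 10 that mark epithelial cells or are set against them: the keratins KRT8, KRT18, KRT7, KRT19 and KRT80, the filament protein VIM, the surface protein EPCAM, the splicing regulators ESRP1 and ESRP2, and the transcription factor GRHL2. A gene was found by its symbol in the platform annotation, through transcript clusters (the array's gene-level units) that carried that symbol alone, and 9 of the 10 were found among 14232 genes. ESRP2 was named only by a cluster that carried a second symbol as well, so its level is not given. The arrays were exon arrays from human cell lines, summarised per gene as an intensity, and every level below is log2 of that intensity. HepG2, a line from a liver carcinoma, was grown in DMEM and K562, a leukaemia line with erythroid features, in RPMI medium. In each line, stably transfected cells that carried a plasmid with an siRNA against ADAR1 (ADARkd) were set beside cells that carried a scrambled siRNA (SCR). There was 1 array for each of HepG2 ADARkd, HepG2 SCR, K562 ADARkd and K562 SCR. The labels tell that several siRNAs were tried and the strongest kept, and nothing in them says whether the cells were clones or a pool. All 4 groups carry a plasmid, and untransfected cells were not analysed here.

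Keratins are the intermediate filaments of epithelial cells. A type II keratin such as KRT8 pairs with a type I keratin such as KRT18, and a filament forms only from such pairs. Simple epithelia, which are a single layer of cells, carry KRT8 and KRT18, and bile duct and other ductal cells add KRT7 and KRT19, while hepatocytes normally keep to KRT8 and KRT18. VIM, a type III filament protein, is typical of mesenchymal and blood cells. EPCAM is a homophilic adhesion protein of epithelial surfaces and is commonly found on HepG2 cells. ESRP1 and ESRP2 direct epithelial splicing, and GRHL2 switches on junction genes in epithelia.

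The targeted gene was lower on both ADARkd arrays. ADAR stood at 7.27 on the HepG2 ADARkd array against 8.96 on the HepG2 SCR array, a log2 difference of -1.69 that left 31.0% of the SCR intensity. In K562 it stood at 6.78 in ADARkd and 7.99 in SCR, a difference of -1.21 that left 43.2%. Array medians lay between 36.1 and 37.0 on the intensity scale. Over genes, which are no replicates of each other, Pearson's r between the ADARkd and SCR levels was 0.977 on the arrays labelled HepG2 and 0.993 in K562. Signal over background was not analysed here, so a level under the median of all genes (5.31 on the arrays labelled HepG2 and 5.28 in K562, as means of a line's 2 arrays) may be set by background. Probes also differ in brightness, so differences are taken between arrays for a gene. A level set against the median of all genes is therefore a rough guide only. In bulk RNA, fewer cells that make a transcript and less of it per cell cannot be told apart.

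The label HepG2 was checked against markers of the hepatocyte. Of 25 markers found, 2 reached the median of all genes on the arrays labelled HepG2, and 3 in K562. ALB (albumin) stood at 2.97 in ADARkd and 3.04 in SCR, AFP (alpha-fetoprotein) at 2.85 and 2.89, the lipoprotein APOA1 at 4.89 and 4.85, and APOA2 at 3.60 and 3.62. These secreted liver proteins, which HepG2 cells are known to make, were thus under the median on both arrays, and the data go against the label there. CPS1, a mitochondrial enzyme of the urea cycle, was the bright exception at 10.56 in ADARkd and 10.89 in SCR. The arrays are therefore called "labelled HepG2", and every difference drawn from them carries that limit. The K562 label was borne out by its erythroid markers, of which 10 of 11 reached the median in K562 and 1 of 11 on the arrays labelled HepG2.

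Within this background, KRT8 and KRT18 were bright on all 4 arrays. KRT8 (transcript cluster 3455516) stood at 9.99 in ADARkd and 9.22 in SCR on the arrays labelled HepG2, and at 8.95 in ADARkd and 9.11 in SCR in K562. KRT18, its type I partner (cluster 3415576), stood at 8.5 in ADARkd and 7.80 in SCR on the arrays labelled HepG2, and at 7.96 in ADARkd and 7.99 in SCR in K562. For both genes the ADARkd array labelled HepG2 was the highest of the 4, and the other 3 arrays lay close together. Between the SCR arrays, labelled HepG2 minus K562, KRT8 differed by 0.11 and KRT18 by -0.18, so the SCR levels of the pair lay near each other in the 2 lines. KRT8 and KRT18 have many processed pseudogenes whose transcripts can share probes, so both levels are uncertain. Another 3 clusters carried KRT8 together with a second symbol and were not used.

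KRT7 and KRT80, both type II keratins, separated the lines. KRT7 (cluster 3415320) stood at 9.50 in ADARkd and 9.25 in SCR on the arrays labelled HepG2, and at 4.23 in ADARkd and 4.0 in SCR in K562. KRT80 (cluster 3455134), a keratin of many epithelia that is found near junctions, stood at 6.65 in ADARkd and 6.40 in SCR on the arrays labelled HepG2, and at 4.32 in ADARkd and 3.99 in SCR in K562. For both genes the 2 arrays labelled HepG2 lay above the median of all genes and both K562 arrays below it. KRT7 is a keratin of ductal and other simple epithelia that normal hepatocytes lack.

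KRT19, the ductal type I keratin (cluster 3757108), did not separate the lines. It stood at 6.78 in ADARkd and 5.45 in SCR on the arrays labelled HepG2, and at 5.98 in ADARkd and 5.80 in SCR in K562. The SCR array labelled HepG2 was the lowest of the 4 and its ADARkd array the highest, so both K562 arrays lay between them.

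VIM (cluster 3236958) was bright in both lines. It stood at 8.85 in ADARkd and 9.41 in SCR on the arrays labelled HepG2, and at 8.17 in ADARkd and 8.36 in SCR in K562. Both arrays labelled HepG2 were above both K562 arrays, and in each line the ADARkd array was the lower. High VIM beside high KRT8, KRT18 and KRT7 was thus measured in the same RNA on the arrays labelled HepG2. Whether the same cells made all of these transcripts cannot be told from bulk RNA.

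EPCAM ran the other way. It (cluster 2480961) stood at 4.01 in ADARkd and 3.98 in SCR on the arrays labelled HepG2, and at 7.56 in ADARkd and 7.88 in SCR in K562. Both arrays labelled HepG2 lay under the median of all genes, although EPCAM is commonly found on HepG2 cells, and both K562 arrays lay well above it. ESRP1 (cluster 3107548) stood at 2.84 in ADARkd and 3.50 in SCR on the arrays labelled HepG2, and at 3.55 in ADARkd and 3.24 in SCR in K562. GRHL2 (cluster 3109687) stood at 3.12 in ADARkd and 3.09 in SCR on the arrays labelled HepG2, and at 3.71 in ADARkd and 3.33 in SCR in K562. Both regulators lay under the median of all genes on all 4 arrays, so none of the arrays gave a clear signal for either. The plot of levels by array shows all 9 genes.

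**Figure D1:**
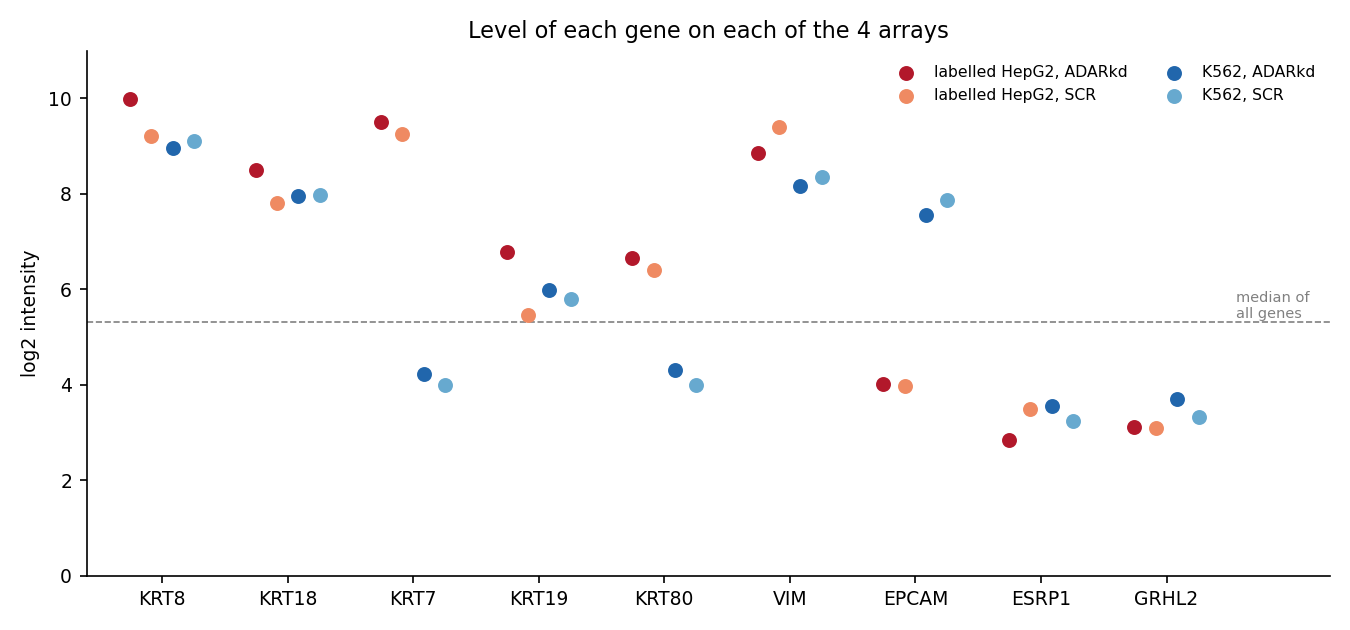
Log2 intensity (vertical axis) of each of the 9 genes on the 4 arrays, with 1 point per array and a dashed line at the median of all genes on the arrays labelled HepG2 (5.31). KRT7 and KRT80 lie high on the arrays labelled HepG2 and low in K562, EPCAM lies the other way round, and ESRP1 and GRHL2 lie under the line on all 4 arrays.

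The lines were then compared with limma, with line and arm as terms, over all 14232 genes and with no filter on low values, so that each of the 9 genes was tested. A gene passed if its Benjamini-Hochberg adjusted p was under 0.05 and the lines were 2-fold or more apart. Of the 9 genes, 2 passed as higher on the arrays labelled HepG2, where 9.26% of all genes did, and 1 as lower, where 6.84% did. In either direction 16.1% of all genes passed. KRT7 was higher on the arrays labelled HepG2 by 5.26 ± 0.21 (log2 difference, SE, 2 arrays per line; limma adjusted p = 4.16e-07), which is 38.2-fold. KRT80 was higher by 2.37 ± 0.19 (limma adjusted p = 1.7e-05), which is 5.18-fold. EPCAM was lower on the arrays labelled HepG2, with a log2 difference of -3.73 ± 0.21 (limma adjusted p = 1.53e-06), which is 13.2-fold. The dimmer side of all 3 genes lay under the median of all genes, so the sizes of these folds are uncertain.

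The other 6 genes did not pass. VIM had a log2 difference of 0.86 ± 0.20 (limma adjusted p = 0.0111), which is 1.82-fold and falls short of the 2-fold bound. Without the ADARkd array labelled HepG2 its difference was 1.14 and it passed. KRT8 had a difference of 0.57 ± 0.24 (limma adjusted p = 0.102), made up of 1.04 between the ADARkd arrays and 0.11 between the SCR arrays. KRT18 had 0.18 ± 0.24 (limma adjusted p = 0.569), with 0.54 between the ADARkd arrays and -0.18 between the SCR arrays. KRT19 had 0.23 ± 0.28 (limma adjusted p = 0.538), with 0.79 between the ADARkd arrays and -0.34 between the SCR arrays. For these 3 keratins the difference between lines thus rested on the ADARkd array labelled HepG2. GRHL2 had -0.42 ± 0.18 (limma adjusted p = 0.11) and ESRP1 -0.22 ± 0.23 (limma adjusted p = 0.471), both between levels that background may set. A p that misses the threshold does not show that levels were alike.

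These p-values rest on 1 residual degree of freedom and on the spread assumed across genes, and a line's arrays come from different arms. That residual is the gap between the lines in the knockdown difference, and no spread between replicates enters it. In simulated data the fit made more false calls than its nominal rate, so adjusted p-values are approximate.

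**Figure D2:**
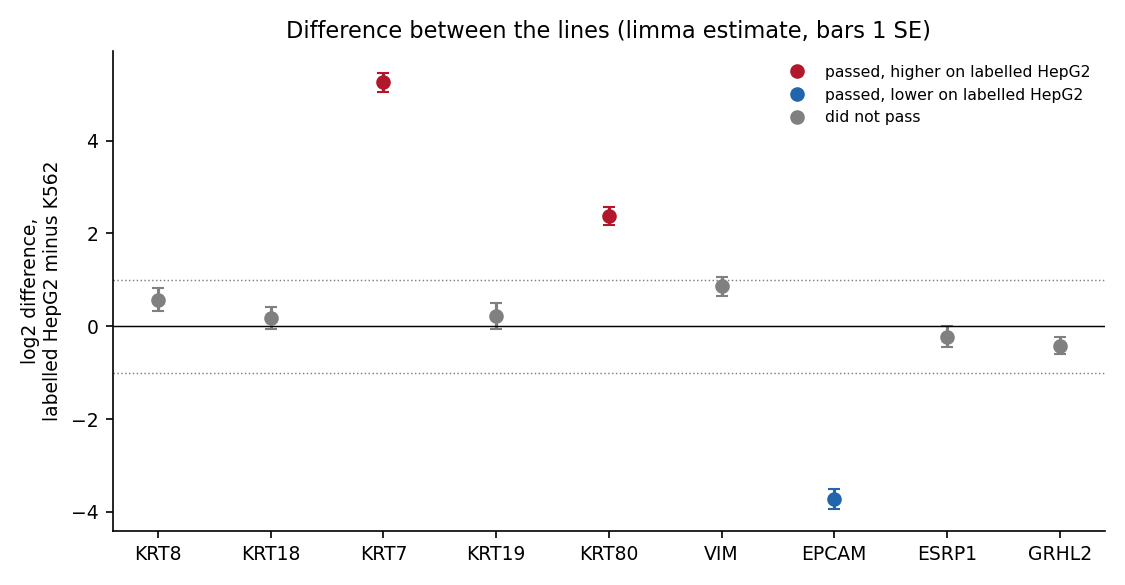
Log2 difference, arrays labelled HepG2 minus K562 (vertical axis), for each of the 9 genes as estimated by limma, with bars of 1 SE and dotted lines at 2-fold. KRT7 (5.26) and KRT80 (2.37) passed as higher, EPCAM (-3.73) as lower, and the other 6 points lie within the dotted lines.

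The knockdown comparison within the arrays labelled HepG2 has 1 array per arm, so its differences carry no test. The largest of the 9 genes was KRT19, with a log2 difference of 1.32 (ADARkd minus SCR), which is 2.5-fold. It was the 1 gene of the 9 at least 2-fold apart, where 2.99% of all genes were (1.59% higher and 1.4% lower in ADARkd). KRT8 differed by 0.77 (1.71-fold) and KRT18 by 0.70 (1.62-fold), so the 2 partners of 1 filament differed by similar amounts. KRT7 differed by 0.25 and KRT80 by 0.24. All 5 keratins were thus brighter on the ADARkd array, and they kept that sign after quantile normalization and after loess. The differences of KRT7 and KRT80 were smaller than the SD over all genes, 0.41. The 15 other keratins found had a median difference of -0.02, against 0.01 over all genes. How many of all genes were brighter in ADARkd was not counted. VIM was dimmer on the ADARkd array, with a difference of -0.55 that left 68.2% of its SCR intensity. ESRP1 differed by -0.66 between dim levels, while EPCAM (0.03) and GRHL2 (0.03) barely differed. At a bound of 1.5-fold, which was chosen after the values were seen, KRT19, KRT8 and KRT18 were higher and ESRP1 lower, where 7.43% of all genes were higher and 4.87% lower (12.3% in all).

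In K562 the same differences were small. None of the 9 genes was 2-fold or 1.5-fold apart, where 0.211% of all genes were 2-fold apart (0.112% higher and 0.0984% lower in ADARkd) and 1.74% were 1.5-fold apart (1.19% higher and 0.541% lower). GRHL2 had the largest at 0.37, followed by KRT80 at 0.33, EPCAM at -0.32 and ESRP1 at 0.31. KRT7 differed by 0.23, VIM by -0.19, KRT19 by 0.19, KRT8 by -0.16 and KRT18 by -0.02. VIM was dimmer in ADARkd in both lines, and KRT7, KRT80 and KRT19 were brighter in both. In K562, however, KRT7 and KRT80 lay under the median of all genes, where background may set the level. GRHL2 (0.37) and ESRP1 (0.31) lay under it too. KRT8 and KRT18 were brighter in ADARkd on the arrays labelled HepG2 and slightly dimmer in K562, where the sign of KRT18 turned in 2 of 6 alternatives. The SD of these differences over all genes was 0.41 on the arrays labelled HepG2 and 0.23 in K562, so small differences of either sign are common. Whether a knockdown difference itself differed between the lines was not tested, since the 4 arrays leave no degrees of freedom for it.

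**Figure D3:**
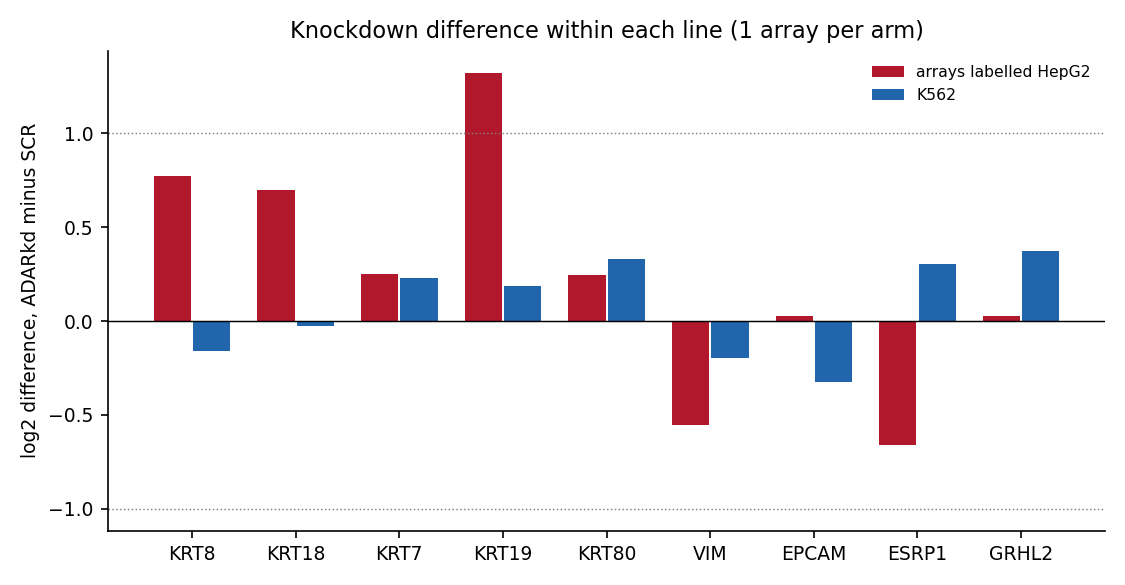
Log2 difference, ADARkd minus SCR (vertical axis), for each of the 9 genes on the arrays labelled HepG2 (red, left) and in K562 (blue, right), with 1 array per arm and dotted lines at 2-fold. KRT19 reaches 1.32 on the arrays labelled HepG2, KRT8 and KRT18 reach 0.77 and 0.70 there, and no K562 bar passes 0.37 in size.

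Promoter sequences of RefSeq (GRCh38.p14) were analysed for 2 of the 10 genes, KRT8 and VIM, and not for the others. These 2 filament genes differed in opposite directions under knockdown on the arrays labelled HepG2. The 250 bases before each annotated start are shown 5′ to 3′ on the gene's strand, with matches to the searched motifs in capitals, KRT8 at chr12:52926470-52926719 on the minus strand and VIM at chr10:17227991-17228240 on the plus strand.
KRT8: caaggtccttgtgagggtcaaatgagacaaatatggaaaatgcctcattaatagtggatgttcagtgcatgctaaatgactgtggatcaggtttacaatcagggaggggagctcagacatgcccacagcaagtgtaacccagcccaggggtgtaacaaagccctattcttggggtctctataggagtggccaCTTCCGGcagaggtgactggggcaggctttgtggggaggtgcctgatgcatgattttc
VIM: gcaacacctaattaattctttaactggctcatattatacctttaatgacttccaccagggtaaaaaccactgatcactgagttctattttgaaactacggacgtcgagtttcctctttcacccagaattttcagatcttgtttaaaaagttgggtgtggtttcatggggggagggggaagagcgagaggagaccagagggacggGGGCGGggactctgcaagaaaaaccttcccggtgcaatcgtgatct
Both strands were searched for 6 motifs. The KRT8 window held 1 match to CCGGAAG, a site of ETS factors, on the opposite strand from 58 bases before the start, a motif present in 8.52% of 35116 such windows. The VIM window held 1 match to GGGCGG, the box of Sp factors, from 46 bases before the start, which 42.6% of windows hold. The TATA box TATAAA (10.7% of windows), CAGGTG, which ZEB and SNAI repressors bind (17.5%), TGANTCA of AP-1 (6.57%) and AACNGGTT of GRHL factors (1.49%) were in neither window. The KRT8 window held 1 CG dinucleotide and the VIM window 8, against a median of 11 over all windows. A match describes letters in a window and is no evidence that a factor binds there. A single window was searched per gene, and whether these cells used that start was not analysed.

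The 5 keratins were next placed among the other keratin genes, which lie in a cluster of mostly type II genes on chromosome 12 and a cluster of type I genes on chromosome 17. In the map order of a later assembly, used for neighbours alone, KRT80 and KRT7 adjoin at the first end of the chromosome 12 cluster, and KRT8 and KRT18 at its other end. KRT18 is the type I gene in that cluster. Of 27 keratin genes on chromosome 12, 11 had a cluster of their own symbol. KRT80, KRT7, KRT8 and KRT18 were the 4 that reached the median of all genes on the arrays labelled HepG2, and KRT8 and KRT18 the 2 in K562. The 7 between the ends were under it in both lines. On chromosome 17, 18 of 28 keratin genes were found, with KRT19, KRT10 and KRT14 at or above the median in each line, the last 2 named after their values were seen.

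A list of 30 other keratins, many of them of stratified epithelia or hair, had 15 members found and none that passed between the lines by limma, where 16.1% of all genes passed. An unadjusted p under 0.05 was found for 4 of the 15, and for 42.4% of all genes. Their median log2 difference was -0.30, against -0.20 over all genes. None of them was 2-fold apart under knockdown on the arrays labelled HepG2, and the range ran from -0.90 (KRT14, a basal keratin, named after its value was seen) to 0.32. KRT14 and KRT19, near neighbours on chromosome 17, thus had differences of opposite sign.

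**Figure D4:**
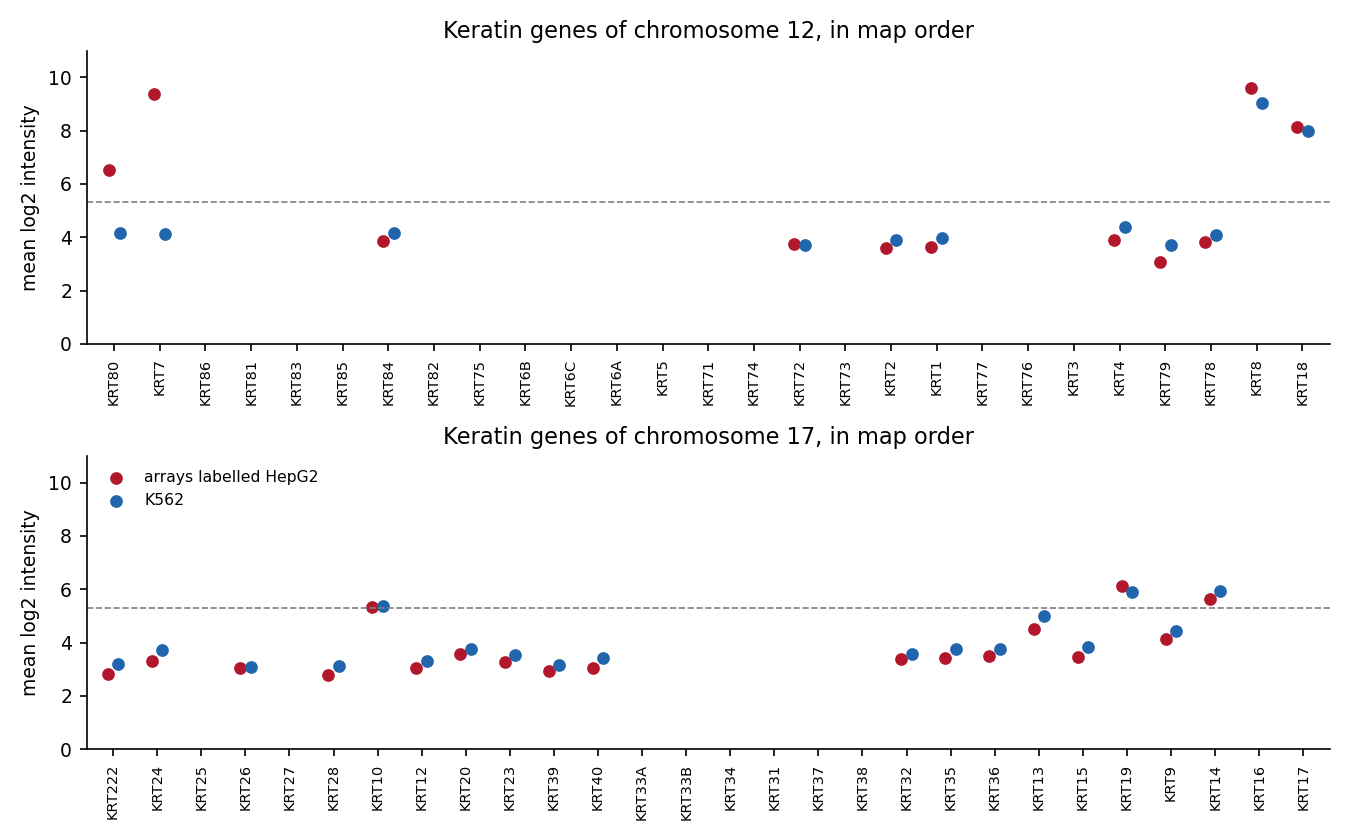
Mean log2 intensity of a line's 2 arrays (vertical axis) for keratin genes in map order along chromosomes 12 (top) and 17 (bottom), for the arrays labelled HepG2 (red) and K562 (blue); a name with no point had no cluster of its own symbol. KRT80 and KRT7 differ between the lines at the first end of the chromosome 12 cluster, and KRT8 and KRT18 at the other end are bright in both.

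The remaining filament proteins split in direction. Of 13 found, 2 passed as higher on the arrays labelled HepG2 and 2 as lower, where 9.26% and 6.84% of all genes did, with a median difference of -0.29 against -0.20 over all genes. LMNA, which encodes the A-type nuclear lamins, was higher by 1.23 ± 0.21 and BFSP1, a beaded filament protein of the lens, by 1.06 ± 0.25. BFSP1 lay under the median of all genes on all 4 arrays, where background may set the level. Its difference was 1.60 between the SCR arrays and 0.52 between the ADARkd arrays, and 0.59 with log2(value + 16), short of 2-fold. NEFH, the heavy neurofilament, had -2.87 ± 0.25 and the B-type lamin LMNB2 -1.06 ± 0.23. The count of 4 was 2 with log2(value + 16), 2 without the SCR array labelled HepG2, and 1 without either K562 array.

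Keratin filaments are anchored at desmosomes. Genes of a list of desmosome parts and other keratin linkers were largely higher on the arrays labelled HepG2. Of 13 found, 9 passed as higher and none as lower, where 9.26% and 6.84% of all genes did, with a median difference of 1.24 against -0.20 over all genes. DSP (desmoplakin), which ties keratins to the desmosome, was higher by 4.48 ± 0.22, the plakin DST by 1.80 ± 0.21, the plakin PPL by 1.58 ± 0.20 and the desmosomal cadherin DSG2 by 1.51 ± 0.21. The desmosomal cadherin DSC2, named after its values were seen, went the other way at -0.83 ± 0.19 and did not pass. The count was 5 with the filter at the 75th percentile and 5 without the K562 SCR array. None was 1.5-fold apart under knockdown on the arrays labelled HepG2, where the differences ran from -0.43 to 0.56.

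Epithelial transcription factors other than GRHL2 were mixed. Of 15 found, 5 passed as higher on the arrays labelled HepG2 and none as lower, where 9.26% and 6.84% of all genes did, and the median difference was -0.17 against -0.20 over all genes. TFAP2A was higher by 4.52 ± 0.21, KLF5 by 3.32 ± 0.25, EHF, an ETS factor of epithelia, by 2.13 ± 0.26, TFAP2C by 1.91 ± 0.27 and KLF4 by 1.87 ± 0.26. The count was 2 with the filter at the 75th percentile and 2 without either K562 array. The GRHL2 paralogs GRHL1 and GRHL3, named after their values were seen, did not pass, at -0.73 ± 0.19 and -0.29 ± 0.19. Under knockdown on the arrays labelled HepG2, EHF (1.35), KLF4 (1.15) and TFAP2C (1.0) were at least 2-fold brighter in ADARkd, where 1.59% of all genes were, beside the 1.32 of KRT19. Over the processing alternatives EHF ranged from 1.075 to 1.397, KLF4 from 0.90 to 1.19 and TFAP2C from 0.79 to 1.04. KLF4 and TFAP2C thus could fall short of 2-fold. On the SCR array labelled HepG2, EHF (5.300) and KLF4 (5.274) lay just under the median of all genes (5.307), where background may set the level. The median knockdown difference of the 15 was 0.10. In K562 the same 3 genes differed by 0.30, 0.02 and -0.16.

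Surface and polarity genes of epithelia numbered 28, of which 8 passed as higher on the arrays labelled HepG2 and none as lower, where 9.26% and 6.84% of all genes did. Their median difference was 0.13 against -0.20 over all genes. The trafficking protein MAL2 was higher by 5.16 ± 0.21, the claudin CLDN7 by 3.99 ± 0.31, PRRG4 by 2.45 ± 0.23 and the microtubule-binding MAP7 by 1.62 ± 0.23. CDH1 (E-cadherin, named after its values were seen) did not pass and stood at 3.21 in ADARkd and 3.29 in SCR on the arrays labelled HepG2, and at 3.46 in ADARkd and 3.45 in SCR in K562. It lay under the median of all genes on all 4 arrays. The count of 8 was 4 with log2(value + 16), 5 with the filter at the median and 3 at the 75th percentile. CLDN7, a known binding partner of EPCAM, was the 1 member at least 2-fold apart under knockdown on the arrays labelled HepG2, at 7.07 in ADARkd and 8.47 in SCR, a difference of -1.41. In K562 it stood at 3.80 in ADARkd and 3.76 in SCR.

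**Figure D5:**
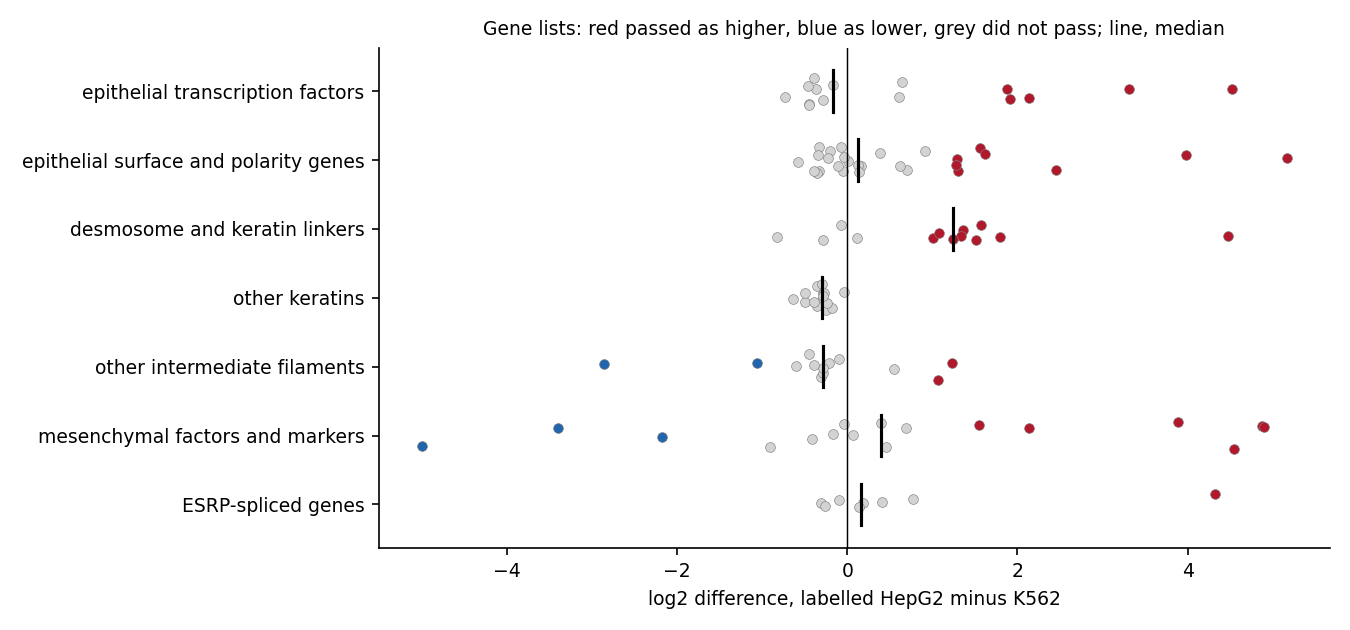
Log2 difference, arrays labelled HepG2 minus K562 (horizontal axis), for the genes of 7 lists, with 1 point per gene, a black line at each list's median, red for genes that passed as higher, blue for lower and grey for the rest. The list of desmosome and keratin linkers has 9 of 13 genes in red and a median of 1.24, while no other keratin is coloured.

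Genes tied to ESRP1 and GRHL2 by earlier work in other cells passed at a share near the 16.1% of all genes. Of 8 genes found that hold exons spliced by ESRP proteins, 1 passed, the hyaluronan receptor CD44, higher on the arrays labelled HepG2 by 4.32 ± 0.20. Gene-level intensity does not show which exons were used. Of 7 genes found that are listed as GRHL2 targets, 1 passed, the receptor ERBB3 at 1.30 ± 0.19, and none did with log2(value + 16) or with either filter. ESRP1 and CDH1 were themselves members of that list and lay under the median of all genes on all 4 arrays.

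VIM was read beside mesenchymal genes, of which 17 were found. Of these 6 passed as higher on the arrays labelled HepG2 and 3 as lower, where 9.26% and 6.84% of all genes did, with a median difference of 0.40 against -0.20 over all genes. The matrix protein TGFBI was higher by 4.89 ± 0.20, N-cadherin, CDH2, by 4.88 ± 0.22 and the repressor SNAI2 by 4.54 ± 0.26, while the matrix protein SPARC had -5.00 ± 0.21. The count of 9 was 6 without either K562 array. Under knockdown on the arrays labelled HepG2, the collagen crosslinker LOX (-2.18) and fibronectin, FN1 (-1.80), were at least 2-fold dimmer in ADARkd, where 1.4% of all genes were. They were the lowest of the 17, whose median knockdown difference was -0.03 and whose differences ran up to 0.29. FN1 had 2 clusters, and the value given is that of the brighter. Over the processing alternatives its knockdown difference there ranged from -1.88 to -1.03. The line difference of FN1 was 2.14 with the brighter cluster and 1.01 with the mean of its clusters.

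Fibroblast and stromal markers were also measured. Of 12 found, 6 passed as higher on the arrays labelled HepG2 and 1 as lower, where 9.26% and 6.84% of all genes did (4 in all without either K562 array). The matrix proteoglycan LUM was higher by 6.49 ± 0.23, its relative DCN by 5.03 ± 0.22 and the microfibril protein FBN1 by 4.49 ± 0.21. Under knockdown on the arrays labelled HepG2, 5 were at least 2-fold dimmer and none 2-fold brighter, where 1.4% and 1.59% of all genes were. COL3A1 differed by -2.42, FN1 (the brighter of its 2 clusters) by -1.80 and FAP by -1.66. At 1.5-fold 2 were brighter, LUM (0.78) and DCN (0.64), and 5 dimmer, where 7.43% and 4.87% of all genes were. The median knockdown difference of the 12 was -0.21. Their summed intensity, which the brightest probes decide, was 1989 in ADARkd and 1822 in SCR on the arrays labelled HepG2, and 558 in ADARkd and 625 in SCR in K562. THY1 and POSTN, named after their values were seen, were under the median on all 4 arrays. The part of such cells in the levels of VIM and the keratins was not tested.

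Markers of other cell types are read against the 16.1% of all genes that passed (9.26% as higher and 6.84% as lower). Among 8 biliary markers 1 passed, CD24, higher by 5.76 ± 0.22, and 2 of the 8 lay at or above the median there. Of 7 markers of basal and squamous epithelium 2 passed as higher, SFN by 3.43 ± 0.21 and the serpin SERPINB5 by 3.10 ± 0.20, and 3 lay at or above the median. Of 7 mesothelial markers MSLN passed as higher (2.01 ± 0.21) and WT1 as lower (-2.65 ± 0.20), and 1 of 11 endothelial markers passed, ENG, at 2.30 ± 0.22. The biliary and endothelial shares were no larger than that of all genes. Leukocyte markers split 1 higher against 6 lower of 12, with LCP1 at -7.31 ± 0.21 and PTPRC at -4.56 ± 0.20. Of 11 erythroid markers 9 passed as lower on the arrays labelled HepG2, led by HBZ at -8.55 ± 0.21. Of 25 hepatocyte markers CPS1 passed as higher (7.47 ± 0.22) and CYP2E1 as lower (-2.19 ± 0.18).

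Genes whose pattern was nearest to each of the 3 genes that passed were sought by Euclidean distance over the 4 arrays, after each gene's levels were centred on its own mean. Nearest to KRT7 were SCRN1 (distance 0.08) and the transcriptional coactivator YAP1 (0.19), of 1317 genes that passed in the same direction. Nearest to KRT80 were HFE, which regulates iron uptake (0.05), and the transglutaminase TGM2 (0.09). Nearest to EPCAM were the kinase PRKCQ (0.06) and COCH (0.14), of 972 genes. With 4 arrays such nearness describes mainly the difference between the lines.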

How the data were processed

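Biotin-labelled total RNA of 4 samples was measured on exon arrays, 1 array per cell line and arm. The authors deposited 1 table of linear intensity values, 1 per transcript cluster. Per the submitters' processing notes RMA was used, with build hg18; versions and later steps are not given in those notes. Of 17881 clusters, 14432 had 1 gene symbol in the platform annotation, 2408 several and 1041 none; the last 2 kinds were not used. By Entrez number 14404 matched RefSeq. The brightest cluster stood for a gene (197 genes had several). The log2 of each intensity was taken without an offset.

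Lines were compared with limma 3.58.1 (R 4.3.3; lmFit, eBayes with trend, two-sided, Benjamini-Hochberg over all genes; terms line and arm). Differences within a line have no test. The number of arrays limits the precision. With 1 array per line and arm, the 1 residual degree of freedom is the gap between the lines in their knockdown differences. The p-values set a line difference against that gap and the spread assumed across genes. They measure no spread between replicate cultures. The fit was tested on simulated data.

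The genes, the 16 lists and the tests were chosen with earlier results of these data known. Genes named were the 10, ADAR, up to 4 per list that passed with the largest line difference, up to 3 per list at least 2-fold apart under knockdown, the first 4 hepatocyte and erythroid markers, and the nearest genes; others are said to be named after their values were seen. Alternatives covered normalization, offset, filter, cluster choice, model terms and each array left out. Figures were drawn with matplotlib 3.10.9.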

Additional observations from a re-analysis of the deposited data

Results flagged for a closer look

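The knockdown difference (ADARkd minus SCR, log2) had opposite signs in the 2 lines for 4 of the 9 genes, and whether the lines differed was not tested. The share of all genes with opposite signs was not counted, so the count alone says nothing particular about these genes. Over all genes the median knockdown difference was 0.0075 on the arrays labelled HepG2 and 0.0222 in K562. For KRT8 it was 0.77 on the arrays labelled HepG2 and -0.16 in K562, which are 0.94 apart. For KRT18 it was 0.70 and -0.02, 0.72 apart, and the K562 sign turned under 2 of 6 alternatives. For EPCAM it was 0.03 and -0.32, 0.35 apart, and the sign on the arrays labelled HepG2 turned under 1 of 6 alternatives. For ESRP1 it was -0.66 and 0.31, a gap of -0.96 between dim levels.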

How the results depend on the processing

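The 3 calls between the lines (KRT7, KRT80, EPCAM) held under quantile normalization, loess, log2(value + 16), the mean of all clusters, the filter at the median, no arm term, no intensity trend and a robust prior. With the filter at the 75th percentile 2 were left, since KRT80 was no longer tested. Leaving out each array gave 3 to 4 calls, and KRT7 then ranged from 5.13 to 5.38, KRT80 from 2.21 to 2.54 and EPCAM from -3.89 to -3.56. These fits had line as the only term and 3 arrays, and the line with 1 array was assumed to vary like the other. Differences that did not pass could turn sign when 1 array was left out. KRT18 ranged from -0.17 to 0.53, KRT19 from -0.44 to 0.89, ESRP1 from -0.55 to 0.11 and ADAR from -0.11 to 1.57. With an array left out the arms are unbalanced, so the line difference takes up part of the knockdown difference. Within each arm ADAR, the targeted gene, was higher on the array labelled HepG2, by 0.97 in SCR and 0.49 in ADARkd. The ESRP1 line difference was also 0.026 after quantile normalization and 0.050 after loess. The median line difference of all genes was -0.20 as deposited, -0.07 after quantile normalization, -0.10 with log2(value + 16) and -0.01 after loess. All genes that passed numbered 2291, against 1159 where the stricter filter (75th percentile) was used, 1367 without the K562 ADARkd array and 1410 without the K562 SCR array.

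Under knockdown on the arrays labelled HepG2, 1 of the genes was 2-fold apart, 0 with the filter at the 75th percentile, which leaves KRT19 untested, and 4 at a bound of 1.5-fold. All genes 2-fold apart there numbered 426, or 207 with log2(value + 16) and 157 with that filter; in K562 they numbered 30, or 8 with the offset, 13 with the filter at the median and 4 at the 75th percentile. The comparison of the lines was paired by arm, and the count was 3 without the arm term as well. The labels give no replicate numbers, so no block by replicate was fitted. Signal over background was not analysed, which limits what EPCAM on the arrays labelled HepG2, KRT7 and KRT80 in K562, and ESRP1 and GRHL2 on all 4 arrays can show.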
